A study of Mus musculus with 24 samples.

Results

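The Ly49 receptors of the mouse are a family of cell-surface receptors encoded by the Klra genes. The 8 genes Klra1, Klra3, Klra4, Klra5, Klra6, Klra7, Klra8 and Klra9 were taken by their gene symbols from a table of 55487 genes, and another 6 rows with Klra symbols (Klra2, Klra10, Klra17 and the pseudogenes Klra11-ps, Klra13-ps and Klra14-ps) served for comparison. RNA was sequenced from 24 libraries of innate lymphoid cells (ILCs) sorted from the small intestine lamina propria of mice 8 to 12 weeks old. In the mice labelled DKO both Nr1d1 and Nr1d2 were floxed and a Vav1-Cre was present, and littermates labelled WT had the floxed alleles without the Cre, so all 8 groups share the floxed genes. Vav1-Cre is active in blood cells of all kinds and not in ILCs alone. Each genotype was sorted into 4 populations, labelled ILC1, NKp46, CCR6 and DN, with 3 libraries per group. The label DN is not explained and the mouse strain is not given in the sources used here, and separate animals are not stated for the 3 libraries of a group.

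Nr1d1 and Nr1d2 encode the REV-ERB nuclear receptors, which repress transcription in the circadian clock. Total counts ran from 12.8 M to 84.4 M per library (M, 1e6 counts), and from 12.8 M to 56.3 M in the 6 ILC1 libraries. The targeted genes do not check the genotype labels, because counts per gene do not show a missing exon. In ILC1 Nr1d1 measured 49.8 to 133 CPM (counts per 1e6 counts) in the WT group and 458 to 515 CPM in the DKO group. Among markers of the sort, Ncr1, which encodes NKp46, measured 2020, 793 and 2030 CPM in the WT ILC1 libraries and 1260 to 1540 CPM in the DKO ILC1 libraries, against 5.95 to 12.1 CPM in WT CCR6. Tbx21, which encodes the ILC1 factor T-bet, measured 105, 276 and 286 CPM in WT ILC1 and 0.95 to 1.58 CPM in WT CCR6. In WT NKp46 it measured 73.7 to 109 CPM, a range that holds WT ILC1 library 1. The DKO ILC1 libraries measured 76.9, 386 and 293 CPM of Tbx21. WT ILC1 library 2 stood apart from its group. It was the shallowest of the 24, and its rank correlations with libraries 1 and 3 over genes were 0.889 and 0.894, while libraries 1 and 3 correlated at 0.927. Genotype differences in ILC1 are also given without it for the Ly49 members and for several of the gene lists.

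Ly49 receptors are C-type lectin-like proteins that natural killer (NK) cells and some other lymphocytes use to read MHC class I molecules on neighbouring cells. Inhibitory members carry a tyrosine motif in the cytoplasmic tail that recruits the phosphatase SHP-1, the product of Ptpn6. The activating members, Ly49D (Klra4) and Ly49H (Klra8), lack that motif and signal through the adaptor DAP12, the product of Tyrobp. A cell expresses some members and not others, so the RNA of a sorted population is a sum over cells with different receptor sets. The Ly49 genes present differ between mouse strains. In bulk libraries, fewer cells that express a gene and less RNA per cell cannot be told apart.

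All 8 genes lie on the minus strand of chromosome 6 (GRCm38), within 487.9 kb from 129898996 to 130386874, in the NK gene complex. Their coding sequences resemble each other so closely that reads can fit more than 1 gene. Klra3 and Klra9 were the closest pair, with 95.9% identity over 798 aligned coding bases, while Klra7 was closest to Klra1, at 88.0%. The longest identical coding run of Klra3 and Klra9 is printed here beside the same stretch of Klra7 and Klra1, from GENCODE transcripts on GRCm38, to show which members a short read can and cannot separate. The stretches lie on the minus strand in exon 6 of Klra3 (chr6:130327073-130327134), exon 6 of Klra9 (chr6:130182394-130182455), exon 7 of Klra7 (chr6:130224095-130224156) and exon 8 of Klra1 (chr6:130372831-130372892). Capitals mark the bases that differ from Klra3.
Klra3: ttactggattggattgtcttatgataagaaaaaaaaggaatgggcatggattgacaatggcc
Klra9: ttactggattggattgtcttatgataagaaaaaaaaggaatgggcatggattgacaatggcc
Klra7: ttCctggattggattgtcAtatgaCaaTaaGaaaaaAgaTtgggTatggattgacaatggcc
Klra1: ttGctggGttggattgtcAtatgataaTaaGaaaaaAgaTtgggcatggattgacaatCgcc
The stretch is 62 bases long. Klra3 and Klra9 are the same throughout, and Klra7 and Klra1 each differ from them at 8 bases.

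Over whole transcripts, the share of 50-base windows that another gene also holds was 33.1% for Klra8, 31.5% for Klra9, 20.7% for Klra3 and 12.3% for Klra7. It was 0.655% to 4.68% for Klra5, Klra6, Klra1 and Klra4. For Klra7 the copy was the pseudogene Klra13-ps, for Klra8 most often Klra14-ps, and Klra3 and Klra9 shared windows mostly with each other and with Klra10. How the authors treated reads that map to several places is not given in the sources used here, so the levels of Klra3, Klra8 and Klra9 are uncertain, while the closeness of copies touches Klra1, Klra5 and Klra6 least. With windows of 100 bases the shared part was 14.4% for Klra8, 4.07% for Klra9 and under that for every other member.

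**Figure D1:**
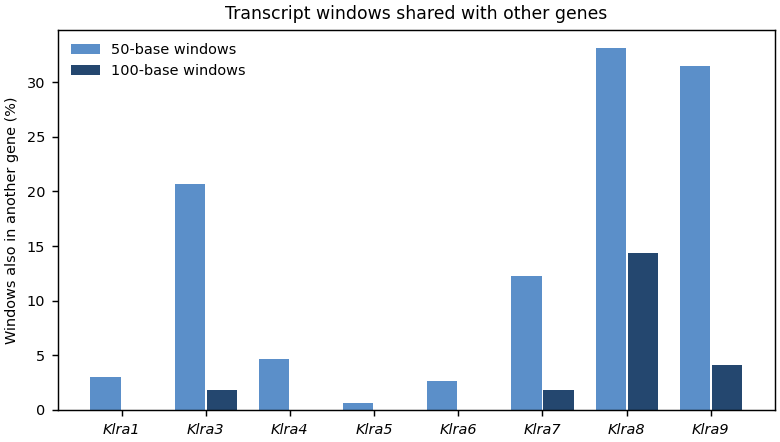
Share of each member's transcript windows, 50 or 100 bases long, that also occur in a transcript of another gene (y axis, percent; x axis, the 8 members). Klra8, at 33.1%, and Klra9, at 31.5%, have the largest shares of 50-base windows, and Klra5, at 0.655%, the smallest.

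The regions upstream of the genes were also compared, because the inhibitory members moved together across the libraries, as described further on. RefSeq promoter windows (250 bases before to 50 after each start, GRCm38.p6) were found for all 8 members, in 10 windows. A block of 50 bases that starts with GCNNTTTCCTC was found in 7 of the 8 members, all but Klra1, and that start occurs, on either strand, in 0.536% of the 32851 promoter windows. The start was read from the members' own windows, so its presence there is no finding. The block is printed for 2 inhibitory members that ILC1 expressed and for the 2 activating members, to set their upstream sequences side by side. The other 3 inhibitory members with the block, Klra3, Klra5 and Klra9, lack CTTTGA in it and are also expressed in ILC1, so the motif does not divide inhibitory from activating members. Capitals mark CTTTGA, a core motif of TCF factors. The blocks lie at chr6:130233366-130233415 (Klra7), chr6:130027028-130027077 (Klra6), chr6:130067305-130067354 (Klra4) and chr6:130129933-130129982 (Klra8), all on the minus strand.
Klra7: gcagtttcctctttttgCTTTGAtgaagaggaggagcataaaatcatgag
Klra6: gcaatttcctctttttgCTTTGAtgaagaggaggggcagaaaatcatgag
Klra4: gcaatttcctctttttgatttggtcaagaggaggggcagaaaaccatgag
Klra8: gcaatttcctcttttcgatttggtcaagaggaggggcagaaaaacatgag
On either strand of the windows, CTTTGA was present in 3 of the 10 member windows, those of Klra6 and Klra7, and in 16% of all promoter windows. The T-box core GGTGTGA and the RUNX core TGTGGTT were present for Klra1 alone among the members, against 3.98% and 5.27% of all windows. AGGTCA, the half-site bound by REV-ERB receptors, was in 0 of the 10 member windows and in 16.3% of all windows. These matches describe letters within short windows and were not tested against the expression values.

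RNA of the 8 members was concentrated in ILC1 and low in DN and NKp46 cells, and these 8 genes had 0 counts in all 6 CCR6 libraries. Summed over the 8 members, the family measured 98.8, 61.1 and 90.5 CPM in the 3 WT ILC1 libraries and 43.8, 24.6 and 18.0 CPM in the 3 DKO ILC1 libraries. Each WT ILC1 library was above each DKO ILC1 library, and the lowest ILC1 library was above every library of the other populations. The mean was 83.5 ± 19.8 CPM (SD, n = 3, as for all group means here) in WT ILC1 and 28.8 ± 13.4 in DKO ILC1. It was 6.98 ± 1.17 CPM in WT DN, 6.88 ± 6.55 in DKO DN, 1.85 ± 1.2 in WT NKp46 and 2.9 ± 1.52 in DKO NKp46. Thus the WT ILC1 mean was 2.9 times that of DKO ILC1, 12 times that of WT DN and 45 times that of WT NKp46. Without WT ILC1 library 2 the WT ILC1 mean was 94.6 CPM, 3.29 times the DKO mean. DN and NKp46 do not differ beyond their spread in DKO, where DKO DN ran from 1.79 to 14.3 CPM. The 0 counts in CCR6 allow up to 0.0139 CPM for any 1 member over the 3 WT libraries and 0.0188 CPM over the 3 DKO libraries, for counting error alone.

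**Figure D2:**
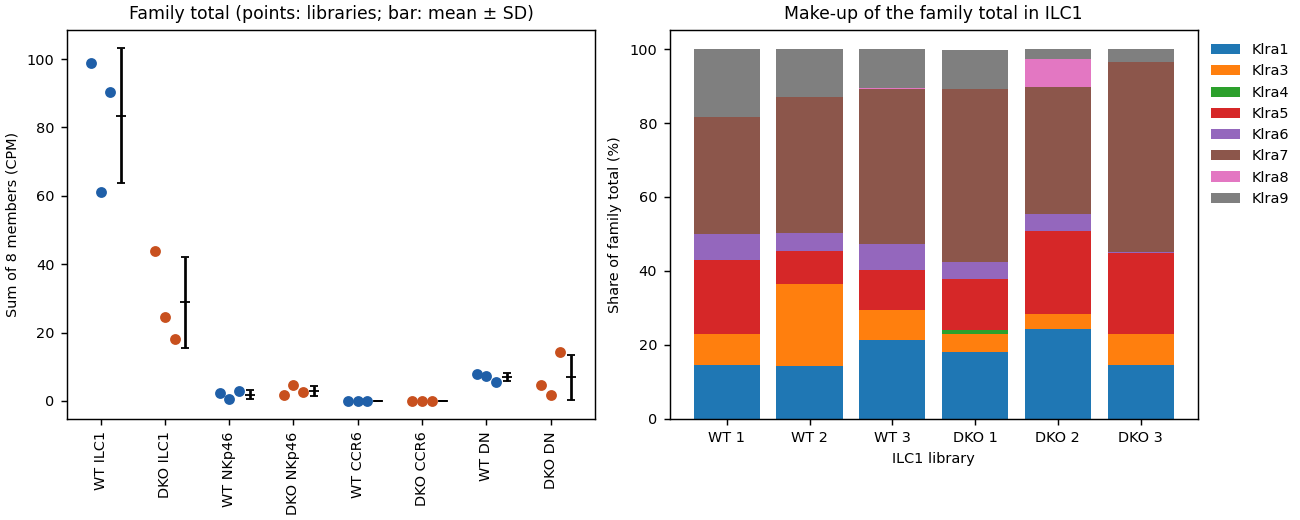
Left, the sum of the 8 members in each library (y axis, CPM), with the mean and SD of each group of 3 beside the points; right, the share of that sum taken by each member in the 6 ILC1 libraries (percent). WT ILC1 libraries sit at 61.1 to 98.8 CPM and DKO ILC1 libraries at 18.0 to 43.8 CPM, and Klra7 takes the largest share in each.

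Klra7 encodes Ly49G, an inhibitory receptor, and was the most abundant member in ILC1. It measured 31.3, 22.5 and 38.2 CPM in WT ILC1, and 20.5, 8.48 and 9.28 CPM in DKO ILC1. Its DN levels were 5.16, 1.57 and 1.86 CPM (WT) and 1.56, 0.687 and 4.45 CPM (DKO). The 2 genotypes did not overlap in ILC1 and overlapped in DN. In NKp46 cells, Klra7 had counts in 1 of 3 WT libraries (0.613 CPM) and in 2 of 3 DKO libraries (0.564 and 1.77 CPM).

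Klra1 encodes Ly49A, an inhibitory receptor for the MHC class I molecule H-2D. It measured 14.3, 8.68 and 19.2 CPM in WT ILC1, and 7.94, 5.94 and 2.61 CPM in DKO ILC1, and no DKO library reached the lowest WT library. In NKp46 cells it measured 0.0306, 0.0822 and 0.49 CPM in WT, and 0 counts were present in all 3 DKO libraries. In DN its levels were 0.489 to 2.89 CPM in WT and 0.809 to 1.01 in DKO.

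Klra5 encodes Ly49E, which appears early in NK cell development. In ILC1 it measured 19.8, 5.46 and 9.93 CPM in WT and 6.06, 5.54 and 3.93 CPM in DKO, and the genotypes overlapped because WT library 2 lay below DKO libraries 1 and 2. In the WT NKp46 libraries Klra5 measured 1.65, 0.205 and 2.29 CPM and made up 41.7% to 82.4% of the family sum, although that sum is small. Of the DKO NKp46 libraries 1 held all of the Klra5 counts, at 4.58 CPM. DKO DN library 3 stood out with 6.08 CPM, against 0.793 and 0.245 in the others.

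Klra3 and Klra9 encode Ly49C and Ly49I, inhibitory receptors that share ligands among MHC class I molecules. Klra9 measured 18.2, 7.79 and 9.65 CPM in WT ILC1, and 4.67, 0.672 and 0.625 CPM in DKO ILC1. Klra3 measured 8.32, 13.5 and 7.29 CPM in WT ILC1, and 2.15, 1.01 and 1.51 CPM in DKO ILC1. For both genes every WT ILC1 library was above every DKO ILC1 library, and the 2 genes share the sequence printed above. Outside ILC1 neither passed 0.912 CPM in any library, and Klra3 had 0 counts in all 3 WT NKp46 libraries.

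Klra6 encodes Ly49F, an inhibitory receptor. It measured 6.8, 3.13 and 6.17 CPM in WT ILC1, and 1.97, 1.12 and 0.0695 CPM in DKO ILC1, without overlap. All 6 NKp46 libraries had 0 Klra6 counts. In DN it stayed at or below 0.445 CPM except in DKO DN library 3, at 2.33 CPM, the library in which Klra5 also stood out.

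The activating members had few counts. Klra4, encoding Ly49D, had 2, 0 and 2 counts in WT ILC1, 10, 0 and 1 counts in DKO ILC1 and 2 counts in 1 WT DN library. Klra8, encoding Ly49H, a receptor for a glycoprotein of mouse cytomegalovirus, had 65 counts (1.82 CPM) in DKO ILC1 library 2 and 0 in the other DKO ILC1 libraries. It had 20 counts (0.705 CPM) in DKO NKp46 library 1, 1 count each in a WT ILC1 and a DKO DN library, and 0 elsewhere. Together both genes gave 5 of the 7385 family counts in WT ILC1 (0.0677%) and 76 of 2892 in DKO ILC1 (2.63%), most of the latter from Klra8 in 1 library. Neither gene passed the filter on low counts, so 6 of the 8 members were tested. The filter asks for enough counts in the libraries of any group, and the tested members had most of their counts in ILC1. Counts of members called higher in ILC1 therefore depend in part on the filter and are descriptions.

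**Figure D3:**
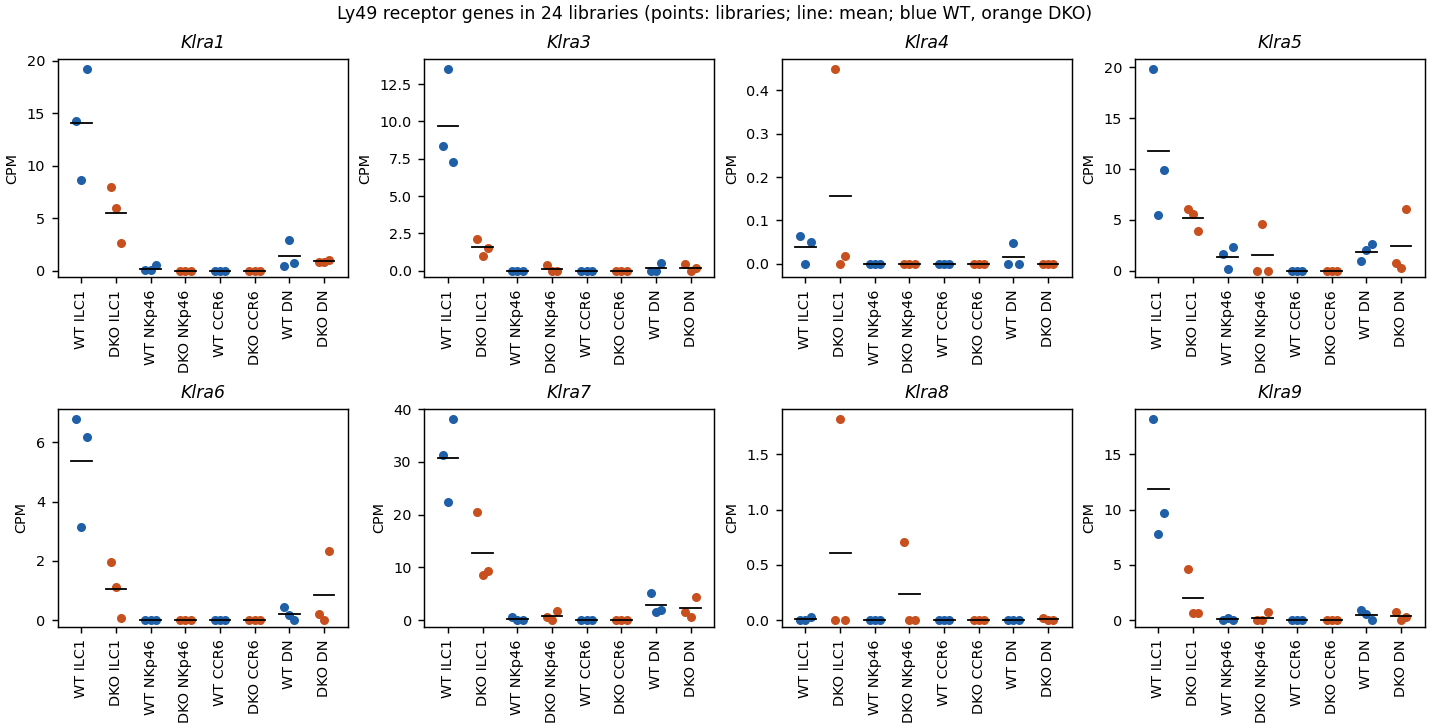
Levels of the 8 members (y axes, CPM, scaled per gene) in the 8 groups; points are libraries, lines are means of 3, WT in blue and DKO in orange. The 6 inhibitory members are highest in WT ILC1, all CCR6 libraries are at 0, and Klra4 and Klra8 have counts in few libraries.

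Levels of different members were compared per kilobase of exon. In ILC1 Klra7 was the highest in 6 of 6 libraries, at 24.2 ± 6.22 CPM per kb in WT and 10.1 ± 5.33 in DKO. The other inhibitory members in WT ILC1 followed at 9.3 ± 4.35 (Klra9), 8.39 ± 5.25 (Klra5), 7.96 ± 2.97 (Klra1), 7.84 ± 2.69 (Klra3) and 4.81 ± 1.76 (Klra6) CPM per kb. These 5 do not differ from their neighbours in that order beyond their spread. In DKO ILC1 the order after Klra7 was Klra5 at 3.7 ± 0.795, Klra1 at 3.11 ± 1.53, Klra9 at 1.55 ± 1.81, Klra3 at 1.26 ± 0.464 and Klra6 at 0.945 ± 0.855 CPM per kb. As shares of the family sum in CPM, Klra7 took 31.7% to 42.2% in WT ILC1 and 34.5% to 51.4% in DKO ILC1. Klra3 took 8.06% to 22.1% in WT and 4.1% to 8.38% in DKO, and Klra9 10.7% to 18.4% and 2.73% to 10.7%. Klra1 took 14.2% to 21.2% and 14.5% to 24.1%. Klra5 took 8.95% to 20% and 13.8% to 22.6%, and Klra6 5.13% to 6.89% and 0.385% to 4.56%. The ranges of Klra6 did not overlap between the genotypes, while those of the other inhibitory members overlapped or met. Shares were not tested.

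The first population comparison set WT ILC1 against WT NKp46 cells, which also express Ncr1. Of the 6 tested members 5 were higher in ILC1 (edgeR, adjusted p under 0.05), where 5.13% of the 21286 tested genes were called higher. These members had passed the filter with most of their counts in ILC1, so the 2 shares are not alike. Klra1 was 69.9-fold higher, a log2 fold change of 6.15 ± 0.97 (SE; edgeR adjusted p = 0.00058), and Klra7 150-fold, a log2 fold change of 7.28 ± 1.38 (edgeR adjusted p = 0.0019). Klra9 was 174-fold higher (7.22 ± 1.85, edgeR adjusted p = 0.016). Klra3 and Klra6, with 0 counts in WT NKp46, had lower bounds of 362-fold (edgeR adjusted p = 0.0054) and 200-fold (0.015), taking 3 counts in the whole group as the floor. For Klra5 the difference of 3.1 ± 1.45 missed the threshold (edgeR adjusted p = 0.19), and its levels did not overlap either. All 6 members lay above WT NKp46 without overlap, as did 9.48% of tested genes. The levels in WT NKp46 rest on 10 to 134 counts per gene and on 1 to 3 libraries. Without WT NKp46 library 1 or without library 3, 3 members were called.

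In WT CCR6 cells no member had a count, and all 6 tested members were higher in WT ILC1, where 9.33% of tested genes were called higher. With 0 counts in CCR6, these 6 had passed the filter through other groups. Klra4 and Klra8, also at 0 there, did not pass it, so the count of 6 is a description. The lower bounds, against 3 counts over the group, were 2210-fold for Klra7, 1010-fold for Klra1, 855-fold for Klra9, 844-fold for Klra5, 698-fold for Klra3 and 386-fold for Klra6. The edgeR adjusted p ran from 7.5e-06 (Klra1) to 0.0059 (Klra6). The CCR6 libraries held 41.7 M to 84.4 M counts each, so the limits that their 0 counts allow are low.

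WT DN cells held 3.76 times as much Ly49 RNA as WT NKp46 cells, by group means. Against WT DN, Klra1 was 10.3-fold higher in WT ILC1 (3.36 ± 0.84, edgeR adjusted p = 0.021) and Klra3 59.4-fold (5.89 ± 1.69, edgeR adjusted p = 0.045), where 2.88% of tested genes were called higher. Klra7 was 10.7-fold above WT DN (3.42 ± 1.11) and missed the threshold (edgeR adjusted p = 0.073), as did Klra9 (4.58 ± 1.6, 0.096), Klra6 (4.68 ± 1.74, 0.13) and Klra5 (2.65 ± 1.42, 0.29). All 6 lay above WT DN without overlap, against 7.18% of tested genes. The 2 calls were sensitive to single libraries. Without WT ILC1 library 3 or without WT DN library 1 no member was called. The count was 1 without WT ILC1 library 1 or 2, WT DN library 2 or 3, any of the 3 DKO ILC1 libraries, DKO CCR6 library 2, or DKO DN library 1 or 3. It was 3 without WT NKp46 library 1 or DKO NKp46 library 2. Over these fits the edgeR adjusted p of Klra3 ran from 0.034 to 0.14 and that of Klra1 from 0.0081 to 0.1. Without WT ILC1 library 2, Klra1 alone was called (edgeR adjusted p = 0.019, Klra3 0.09).

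Between WT DN and WT NKp46 the count of members called was 0 (edgeR), with 4 at an unadjusted p under 0.05. DESeq2 and limma voom called 1 each, and 2.97% of tested genes were called in either direction. Klra7 was 14-fold higher in DN (3.86 ± 1.24, edgeR adjusted p = 0.12) and did not overlap, as did 12.7% of genes that lay above, while Klra5 was at 1.87 ± 0.852 CPM in DN and 1.38 ± 1.07 in NKp46. Against WT CCR6, 3 members were higher in WT DN, where 3.89% of genes were called higher. Klra7 was at least 206-fold (edgeR adjusted p = 0.0029), Klra5 at least 134-fold (0.021) and Klra1 at least 98.4-fold higher (0.00039). In WT CCR6 against WT NKp46, Klra5 was at least 99.4-fold lower (edgeR adjusted p = 0.025) and Klra1 at least 14.4-fold lower (0.011), where 3.41% of genes were called lower. Leaving out WT NKp46 library 3 ended both calls, and leaving out WT NKp46 library 1 or any of the 3 WT CCR6 libraries left 1.

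WT DN libraries also carried more T cell marker RNA than the other populations, and these values stand beside their Ly49 levels. The 14 markers summed to 3290 to 3480 CPM in WT DN, 1470 to 1720 in DKO DN, 1500 to 1790 in WT ILC1 and 801 to 907 in WT NKp46, and none of the 14 was at 0. Summed NK cell markers (13 genes) were 251 to 335 CPM in WT DN, 599 to 737 in WT ILC1 and 161 to 174 in WT NKp46. In WT NKp46, Eomes, Khdc1a and Cma1 were at 0. The part of either cell type in the Ly49 counts was not tested.

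The genotypes were then compared within ILC1. The 6 tested members had lower means in DKO than in WT ILC1, and 5 of them, all but Klra5, lay below WT without overlap, as did 4.26% of tested genes. None passed the test across genes, in which 1.06% of genes were called in either direction and 0.277% lower. The log2 fold changes were -1.36 ± 0.77 for Klra1 (edgeR adjusted p = 0.47), -2.64 ± 1.43 for Klra3 (0.44) and -2.36 ± 1.56 for Klra6 (0.55). They were -1.27 ± 1.03 for Klra7 (0.63), -2.6 ± 1.46 for Klra9 (0.46) and -1.18 ± 1.35 for Klra5 (0.75). The 95% intervals show how wide these estimates are: for Klra3 from -5.69 to 0.41, and for Klra1 from -3 to 0.29. By edgeR 0 members were called and 0 had an unadjusted p under 0.05. DESeq2 also called 0. The weighted linear model limma voom called 3: Klra1 at -1.75 (limma adjusted p = 0.029), Klra3 at -2.57 (0.029) and Klra9 at -3.48 (0.023).

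An exact two-sided permutation test over the 6 libraries of the difference in log2(CPM + 0.5) gave p = 0.1 for Klra1, Klra3, Klra6, Klra7 and Klra9. This is the smallest value that 3 libraries against 3 allow. The same exact test gave p = 0.3 for Klra5, 0.9 for Klra4 and 1 for Klra8. Without WT ILC1 library 2 the log2 fold changes of the 6 inhibitory members ran from -1.44 (Klra7) to -2.82 (Klra9). In that fit 7 members passed the filter, 1 of them an activating member that was not negative. Of these, 0 were called by edgeR.

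Among 14 other tested lectin-like receptors, listed as those of the NK gene complex, the values depended on WT ILC1 library 2. Klrg1 is on this list but lies apart, starting at 122270596 on chromosome 6, where Klrb1a starts at 128609227. With all libraries 0 were called by edgeR between DKO and WT ILC1 and 0 lay below without overlap, and the median log2 fold change was -0.03, against 0 over all genes and -1.86 over the 6 Ly49 members tested. Without WT ILC1 library 2, 6 of the 14 lay below without overlap, as did 10.5% of all genes tested in that fit. Of the 14, 13 were negative, the median was -0.28, and 1, Klrg1, was called lower, as were 85 of 22740 genes. The corresponding Ly49 values without that library were 6 of 7 below, now with Klra5, and a median of -1.61. Those 7 include 1 activating member that passed the filter in that fit alone, so the 2 Ly49 medians cover different sets. Klrb1c, which encodes NK1.1, measured 998, 696 and 1110 CPM in WT and 921, 917 and 766 CPM in DKO ILC1. Its genotypes overlapped through WT library 2 alone. With all libraries Klrk1 (NKG2D) differed by 0.11 ± 0.21, Klrd1 (CD94) by -0.41 ± 0.46 and Klrg1 by -1.57 ± 0.45 (edgeR adjusted p = 0.11), and these 3 genes were named after their values were seen. The Ly49 members and these receptors were not tested against each other.

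**Figure D4:**
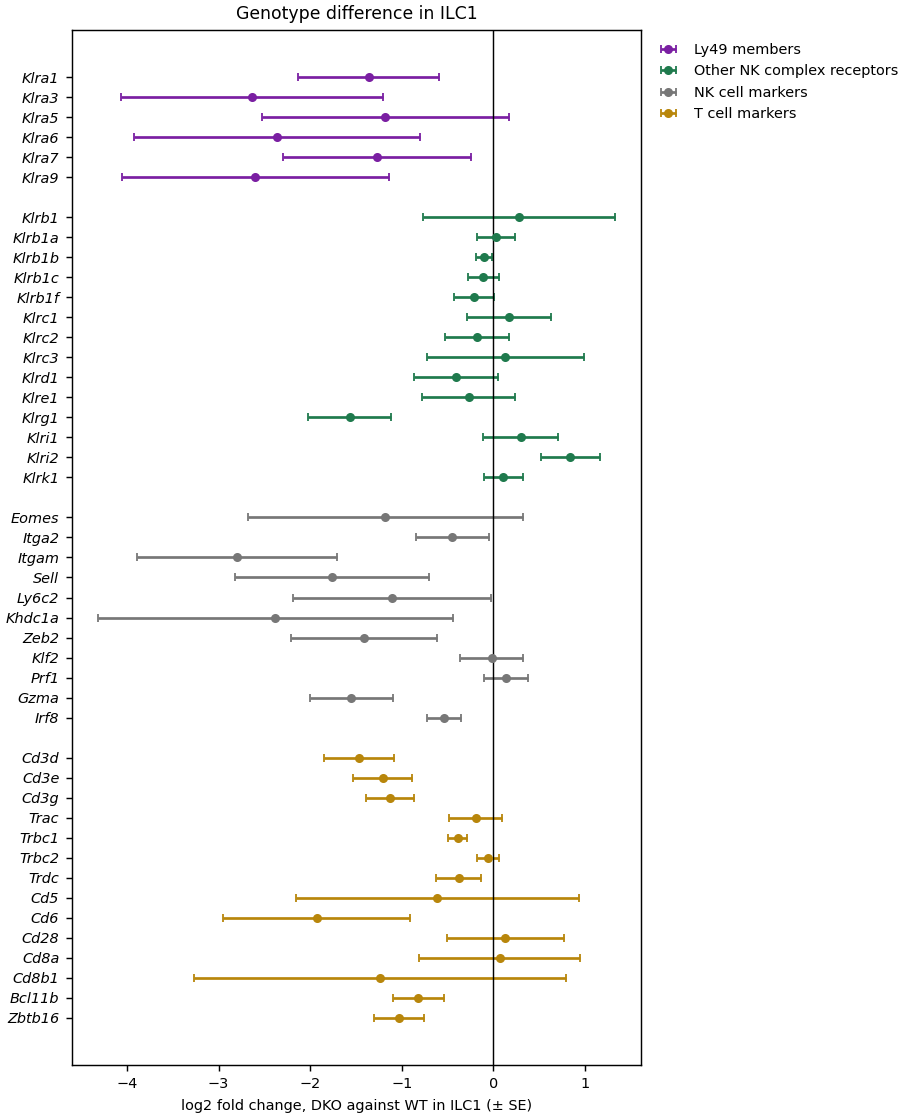
Log2 fold change of DKO against WT in ILC1 (x axis, bars are 1 SE from edgeR) for the 6 tested Ly49 members, the other receptors listed with the NK complex (Klrg1 among them), NK cell markers and T cell markers. The Ly49 members sit at -1.18 to -2.64, the other receptors have a median of -0.03 (-0.28 without WT ILC1 library 2), and NK and T cell markers have medians of -1.18 and -0.72.

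Marker lists of other cell types are given beside these values, to be read against 1.06% of genes called and 4.26% below without overlap. Of 11 tested NK cell markers 0 were called by edgeR and 10 were negative, with a median of -1.18 and 4 below without overlap. Their sum was 599 to 737 CPM in WT ILC1 and 424 to 594 in DKO ILC1, with Cma1 at 0 in DKO. The NK factor Eomes was low in all of them, at 0.161, 0.161 and 2.62 CPM in WT and 0.718, 0.224 and 0.382 CPM in DKO ILC1. Of 14 T cell markers 12 were negative, 4 lay below without overlap, and 1, Cd3g, was called lower (-1.13, edgeR adjusted p = 0.037). Their sum was 1500 to 1790 CPM in WT ILC1 and 1180 to 1440 in DKO ILC1, and none was at 0. Without WT ILC1 library 2, 3 T cell markers were called lower (Cd3e, Cd3g and Trbc1) and 7 lay below without overlap, as did 10.5% of genes in that fit. In that fit 85 of 22740 genes were called lower. Of 10 myeloid markers 0 were called, 8 were negative and 3 lay below without overlap, with a median of -1.16 and sums of 534 to 849 CPM in WT and 309 to 418 in DKO ILC1. Among ILC3 markers, Lta was higher (0.93 ± 0.15, edgeR adjusted p = 0.0014) and Il23r lower (-1.28 ± 0.20, edgeR adjusted p = 0.00076). The 11 ILC1 markers had a median of -0.18 with 0 called and 0 below without overlap, and without WT ILC1 library 2 a median of -0.39 with 6 below. B and plasma cell markers summed to 422 to 682 CPM in WT and 715 to 1130 in DKO ILC1 (median 1.94). Epithelial markers summed to 67.6 to 68.1 CPM in WT and 31.0 to 94.6 in DKO ILC1 (median 2.61), with 0 called in each list. The median of the epithelial sums was 67.9 CPM in WT and 36.3 in DKO, although the median log2 fold change was positive. Of the 8 epithelial markers 1 lay below without overlap, Cdh1, which is named again further on. Of 7 tested B and plasma cell markers 4 lay above without overlap. The share of all genes above with all libraries is not given here, so that count is a description. Without WT ILC1 library 2 it was 4 of 8, where 2394 of 22740 genes lay above. The part of any of these cell types in the lower Ly49 levels was not tested.

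In the other populations 0 members were called between the genotypes by edgeR. In NKp46 cells 1 had an unadjusted p under 0.05, in CCR6 and DN 0. The tool DESeq2 called 1 member in NKp46, and limma voom called 0 there. Over all genes, 4.16% were called in either direction in NKp46, 3.97% in CCR6 and 2.83% in DN. Klra1 in NKp46 cells had 20 counts over the WT libraries and 0 over the DKO libraries, at least 5.47-fold lower against the floor (edgeR adjusted p = 0.066), without overlap, as were 11.7% of genes below. Klra7 in NKp46 differed by 1.97 ± 1.23 (edgeR adjusted p = 0.47), and Klra5 by 0.16 ± 1.36. In DN all 6 tested members overlapped between the genotypes, with log2 fold changes from -0.64 ± 0.78 (Klra1) to 2.02 ± 1.57 (Klra6). For Klra6 in DN the sign rested on DKO DN library 3, and it was -1.01 without it.

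The genotype difference in ILC1 was set against that in the other populations. Minus the difference in DN it was -4.39 ± 2.21 for Klra6, -2.92 ± 2.04 for Klra3, -2.1 ± 2.01 for Klra9, -1.54 ± 1.9 for Klra5, -0.92 ± 1.44 for Klra7 and -0.72 ± 1.09 for Klra1. Minus the difference in NKp46 it was -4.15 ± 2.19 for Klra9, -3.24 ± 1.61 for Klra7 and -1.34 ± 1.91 for Klra5, and it could not be estimated for the 3 members with 0 counts in a group. None was called by edgeR and none had an unadjusted p under 0.05, where 0.343% (DN) and 0.559% (NKp46) of genes were called. Neither DESeq2 nor limma voom called any. A difference between populations in the genotype effect was thus not detectable with 3 libraries per group and these low counts. Against CCR6 none could be estimated.

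DKO ILC1 still held more Ly49 RNA than other DKO cells. Its family mean was 9.95 times that of DKO NKp46 and 4.18 times that of DKO DN. Against DKO CCR6, with 0 counts, all 6 tested members were higher, by at least 681-fold for Klra7 and at least 56.2-fold for Klra6, where 5.99% of genes were called higher. Without DKO CCR6 library 1 or without library 2 it was 3. Against DKO NKp46, Klra1 was called (at least 150-fold higher, edgeR adjusted p = 0.00027), where 2.47% of genes were called higher. Klra7 missed the threshold there (4.04 ± 1.17, edgeR adjusted p = 0.059). Against DKO DN 0 were called by edgeR with 2 at an unadjusted p under 0.05, while DESeq2 called 1 and limma voom 3. Klra1 came closest (2.64 ± 0.81, edgeR adjusted p = 0.066), and 3.17% of genes were called higher.

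The inhibitory members varied together across libraries. The correlation of each member with the sum of the others, on log2 CPM over the 24 libraries, was 0.862 for Klra7, 0.845 for Klra1 and 0.737 to 0.774 for Klra3, Klra6, Klra5 and Klra9. Klra4 and Klra8, with few counts, were at 0.453 and 0.148. Within the 6 ILC1 libraries it was 0.965 for Klra9, 0.925 for Klra6, 0.921 for Klra1, 0.917 for Klra7, 0.796 for Klra3 and 0.781 for Klra5, and -0.444 for Klra8. The points share population, genotype and library, and for Klra3 and Klra9 possibly reads, so these values are descriptions.

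Among all other tested genes, those most like the Ly49 sum over the 24 libraries were Cdh1 (E-cadherin, r = 0.966), Nkg7 (a granule protein, 0.965), Xcl1 (0.958) and Ccl5 (0.957), both chemokines, then Dusp2 (0.956), Skap1 (0.954), Klrd1 (0.95) and Ms4a4b (0.948). Within the 6 ILC1 libraries they were Afg3l1 (0.988), Eme1 (0.978), Nkg7 (0.972), Cd3d (0.972) and Gramd3 (0.971). Nkg7 was on both lists. These genes were chosen for their likeness, over points that share population and genotype.

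Other rows of the Klra family were low. The pseudogene Klra13-ps, which shares 12.3% of the Klra7 windows, measured 1.23, 2.09 and 2.13 CPM in WT ILC1 and 1.35, 0.084 and 0.278 CPM in DKO ILC1, at most a small part of the Klra7 level in the same libraries. Klra14-ps, which resembles Klra8, had 20 counts in DKO ILC1 library 1 and 1 in library 2, the library with 65 counts of Klra8. Klra10 measured 0.153 ± 0.0727 CPM in WT ILC1 and 0.029 ± 0.0502 in DKO ILC1. Klra2 measured 0.214 ± 0.202 CPM in WT CCR6, from 53 counts in 2 libraries, and had 0 counts in DKO CCR6. Klra17 had 50 counts in 1 DKO NKp46 library and at most 25 over any other group.

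Most of the other lectin-like receptors listed with the NK gene complex were also highest in ILC1 in WT. Exceptions were Klrg1, at 65.5 ± 3.37 CPM in DN and 25.7 ± 20.2 in ILC1, and Klrb1, at 5.38 ± 3.04 in CCR6 and 3.19 ± 3.46 in ILC1. Of 14 tested, 11 were higher in WT ILC1 than in WT NKp46 (median log2 fold change 2.97, against -0.02 over all genes), 12 higher than in CCR6 and 12 higher than in DN. Over all tested genes, 5.13%, 9.33% and 2.88% were called higher in these comparisons, in that order. In WT DN against WT NKp46, 2 were called higher and 7 lower (median -1.28), where 2.97% of all tested genes were called in either direction. By sign 4 were higher in DN and 10 lower. Among the 4 were Klrd1, at 20.5 ± 5.28 CPM against 2.84 ± 0.665, and Klre1, at 4.26 ± 1.55 against 0.427 ± 0.374. The mean Ly49 sum in DN was 3.76 times that in NKp46, with 0 members called. Against NKp46, Klrb1c was at 934 ± 214 CPM against 129 ± 12.5 (2.86 ± 0.18), Klrb1a at 170 ± 37.5 against 13.6 ± 2.1, and Klrd1 at 308 ± 50.5 against 2.84 ± 0.665. In WT CCR6 cells Klrb1c measured 17.9 ± 3.46 CPM and Klrb1b 645 ± 41.6, while Klre1 measured 0.00633 ± 0.011. Of the 15 genes on this list, 1 was at 0 in all 3 WT CCR6 libraries (Klrc3). In DKO CCR6, 2 were at 0 (Klre1 and Klrh1). The genes at 0 differed between the genotypes, so none of the 15 lacked counts in the CCR6 libraries of both. All Ly49 members lacked counts in both.

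Of the signalling partners of Ly49 receptors, Tyrobp, encoding DAP12, measured 306 ± 20 CPM in WT ILC1, 20.9 ± 4.45 in WT NKp46, 8.57 ± 1.85 in WT CCR6 and 5.58 ± 1.61 in WT DN, and was higher in ILC1 than in each (log2 fold changes of 3.87, 5.16 and 5.78, edgeR adjusted p at most 1.7e-07). Ptpn6, encoding SHP-1, measured 512 ± 109 CPM in WT ILC1, and was higher there than in NKp46 by 0.41 ± 0.13 (edgeR adjusted p = 0.044); it was named for its role after its values were seen. Of all 21 partners tested, 9 were higher and 2 lower in WT ILC1 than in WT NKp46, where 5.13% of all tested genes were called higher and 5.6% lower. Between DKO and WT ILC1, 1 was lower, Hcst, which encodes the adaptor DAP10 (-0.60 ± 0.14, edgeR adjusted p = 0.036), and 0 were called without WT ILC1 library 2. With all libraries 1.06% of all tested genes were called, 0.277% lower. Of the 21 partners 4 lay below without overlap, as did 4.26% of all tested genes, and 2 lay above. Tyrobp, also named after its values were seen, was at 152 ± 25.2 CPM in DKO against 306 ± 20 in WT ILC1 and missed the threshold (-1.01 ± 0.32, edgeR adjusted p = 0.17).

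Of 12 genes of MHC class I, the ligands of Ly49 receptors, and of its peptide loading, 1 was higher in WT ILC1 than in WT NKp46 (H2-Q7, 0.93 ± 0.14, edgeR adjusted p = 0.00013). Over all tested genes, 5.13% were called higher there. Between DKO and WT ILC1, 0 were called and 0 lay below without overlap (median -0.07), where 1.06% of all tested genes were called and 4.26% lay below. Without WT ILC1 library 2, 0 were called and all 12 were negative (median -0.17). In that fit 3 lay below without overlap (Tap1, Tap2 and Tapbp), as did 10.5% of genes. Among 19 transcription factors of NK cells and ILC1, Tox was higher in DKO than in WT ILC1 (0.85 ± 0.13, edgeR adjusted p = 0.00038). It was the only one called there, where 1.06% of all tested genes were called, and Tbx21 differed by 0.18 ± 0.51. Without WT ILC1 library 2, 2 factors were higher in DKO than in WT ILC1 (Tox and Nfil3) and 1 lower (Id2). In that fit 179 of 22740 genes were called higher and 85 lower. Between WT ILC1 and WT NKp46, 4 of the 19 were higher in ILC1 and 2 lower, Tox and Nfil3. Over all tested genes, 5.13% were called higher and 5.6% lower there. Zfp683, which encodes Hobit, was among the higher (5.22 ± 0.7, edgeR adjusted p = 3.3e-05).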

How the data were processed

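Bulk RNA was sequenced with a low-input SMARTer kit without named molecular identifiers, per the labels' protocols, so PCR copies count as reads. The authors deposited unnormalized read counts per gene. Tools in the submitters' processing notes were R 4.1 and DESeq2, Salmon 1.5.2, featureCounts 2.0.3 (also Subread), STAR 2.7.9a and bcl2fastq, with mm10 as genome build. Roles, strand setting and treatment of multimapping reads were not given in the sources used here. Of 55774 rows, 287 repeats with identical counts were dropped, and 0 value columns were unused. Depth is given in the report. The floor of 3 counts and all counts at 0 cover counting error alone.

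In R 4.3.3, CPM (counts per 1e6, TMM factors) and tests came from edgeR 4.0.16: filterByExpr by group (21286 genes), 1 mean per group over 24 libraries, 16 residual degrees of freedom, a robust quasi-likelihood test and Benjamini-Hochberg adjustment over all genes, called at an adjusted p under 0.05. The spread is estimated over all groups, and each p-value rests on the spread between libraries only, which may be technical. Alternatives were other size factors, no filter, DESeq2 1.42.0, limma voom (limma 3.58.1), the groups compared alone, a replicate block and leaving out each library. The scripts were tested on simulated data. All 8 members are named in each comparison. From each gene list up to 4 called genes with the smallest adjusted p, fixed defining markers, and the 8 (24 libraries) and 5 (ILC1) genes most correlated with the family sum could be named, and exceptions are marked. The result of 1 ILC3 marker is not reported here. Members and lists were chosen with earlier results of these data known. Exon lengths and coordinates came from GENCODE release M21 (GRCm38), and promoters from RefSeq (GRCm38.p6).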

Additional observations from a re-analysis of the deposited data

How the results depend on the processing

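Counts of called members depended on the tool and on single libraries, and the cause was not tested. In WT ILC1 against WT NKp46 (5 called) the count was 3 to 5 with 1 library left out, and against WT DN (2 called) 0 to 3. Against DN it was 1 with DESeq2, 6 with limma voom and 1 with the 2 groups alone. For WT DN against WT NKp46 (0) it was 1 without the filter, with DESeq2, with limma voom and with a replicate block within genotype, and 0 to 1 with a library left out. For WT CCR6 against WT NKp46 (2) it was 1 without the filter, with limma voom, with that replicate block and with the 2 groups alone, and 0 to 2 with a library left out. For DKO against WT it was 3 in ILC1 with limma voom (0 by edgeR, and 0 with any library left out), and 1 in NKp46 without the filter or with DESeq2, with a range of 0 to 1 (1 without WT NKp46 library 1 or WT DN library 2). For DKO ILC1 against DKO NKp46 (1) it was 2 without the filter, 4 with limma voom, 2 with either replicate block, and 1 to 2 with a library left out. Against DKO CCR6 (6) it was 3 to 6. Against DKO DN (0) it was 1 without the filter or with DESeq2, 3 with limma voom, 2 with the groups alone, and 0 to 1 with a library left out (1 without WT NKp46 library 3 or WT DN library 2). Without Klra7 the family mean was 52.8 CPM in WT ILC1 and 4.11 in WT DN. Among single genes, 1422 alternative values kept their direction and side of the threshold, 36 gained a call, 20 lost one and 21 changed sign, all of them uncalled. With limma voom Klra5 was -2.79 in NKp46 and -0.38 in DN (DKO against WT), and 1.55 in the ILC1 minus NKp46 difference, and Klra9 was 0.26 in DN. With 1 library left out, Klra5 ran from -0.08 to 1.01 for WT DN against WT NKp46, and from -0.36 to 0.74 for DKO against WT in NKp46. In DN, DKO against WT, the range was -1.04 to 0.54 for Klra1, -1 to 0.83 for Klra3 (also -0.32 and -0.31), -1.84 to 0.89 for Klra5, -1.01 to 3.26 for Klra6, -1.34 to 0.39 for Klra7 (also 0.09) and -1.63 to 0.3 for Klra9 (also 0.02). For DKO ILC1 against DKO DN, Klra6 ran from -0.53 to 3.32 (also -0.17 and -0.28). In the ILC1 minus DN difference Klra5 ran from -2.06 to 0.66 and Klra7 from -1.64 to 0.08. Libraries with the same number in different groups of a genotype correlated in their deviations at -0.026 to 0.077 (median 0.037), with 0 of 36 pairs over 0.1. With different numbers the range was -0.097 to 0.047 (median -0.018). The labels do not say that a number marks an animal, so the main fit took no pairing. These low correlations cannot decide whether animals were shared, and fits with a replicate block are among the alternatives. The lists in ILC1 without WT ILC1 library 2 were added after seeing the data. Low counts outside ILC1 limit every comparison there, and groups of 3 limit the ILC1 comparison.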
